A study of Bos taurus with 5 samples.

Results

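Kinesins are motor proteins that walk along microtubules or take them apart, and the 39 genes described here are the rows of the deposited table whose symbol begins with KIF or KIFC followed by a number. They are 39 of 27607 genes in that table, chosen by name, with earlier results of these data known. By their best known roles in human and mouse cells, 14 were placed among the mitotic kinesins, 16 among the transport kinesins and 9 among the others, which serve mainly cilia, centrioles or signalling. KIF1B, KIF4B and KIF25 are not analysed here.

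Kinesins hydrolyse ATP in a conserved motor domain and convert it into movement or force on microtubules. Mitotic kinesins separate the spindle poles, align and move chromosomes, shorten microtubules at their ends and build the midzone at which the cell divides, and an early cleavage embryo divides with the mRNA and protein it inherited from the egg for most of this work. Transport kinesins carry vesicles, mitochondria, RNA granules and ciliary components, often through light chains or adaptor proteins.

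The study compared embryos of cattle (Bos taurus) sired by low-performing or by high-performing bulls. RNA was sequenced from 2 pools of embryos in the low-performing group and 3 pools in the high-performing group, each of 100 in vitro embryos. The labels put all pools at the 4-cell stage, the series text says 2 to 4 cells, and neither defines performance. Addition of recombinant Wnt5A, a secreted signalling protein, is named for all 5 pools alike. No label ties the pools of a group to separate bulls, fertilisations or cultures, so a p-value here reflects pool-to-pool spread that may be purely technical.

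The pools held 67248924 to 113100809 reads in genes, and each expressed kinesin described below had at least 167 reads in every pool. Of 10 egg and cleavage embryo markers, all 10 were above 1 RPKM in at least 1 pool, with summed levels of 17586 to 23262 RPKM in the low-performing pools and 10331 to 14512 RPKM in the high-performing pools. RPKM counts reads per kilobase of gene, scaled to the same read total in every library. BTG4 made up most of the egg marker sum, at 11816 and 16943 RPKM in the low-performing pools against 6021 to 9357 RPKM in the high-performing pools. ZP2 averaged 289 RPKM in the low-performing and 294 RPKM in the high-performing pools, and NLRP5 74.8 and 79.3 RPKM. The other 8 egg markers were higher in the low-performing pools on average. The 10 cumulus and granulosa markers summed to 189.3 to 191.2 RPKM in the low-performing and 191.8 to 210 RPKM in the high-performing pools. FSHR and LHCGR were under 0.1 RPKM in all. STAR made up most of the sum, at 159 and 158 RPKM in the low-performing pools against 147 to 171 RPKM in the high-performing pools. HAS2 had 22.4 and 15.4 RPKM in the low-performing pools against 22.9 to 29.0 RPKM in the high-performing pools. The 10 sperm markers summed to 15.5 to 28.0 RPKM in the low-performing pools and 9.35 to 10.8 RPKM in the high-performing pools, with the defining PRM1, PRM2, TNP1 and SPACA1 under 0.1 RPKM throughout. Most of that sum came from ACRV1, at 9.03 and 16.6 RPKM in the low-performing pools against 5.67 to 5.91 RPKM in the high-performing pools, and from SPA17, at 5.40 and 10.6 RPKM in the low-performing pools against 3.04 to 4.23 RPKM in the high-performing pools. The 6 blood markers summed to 17.4 to 19.6 RPKM in the low-performing and 16.4 to 19.0 RPKM in the high-performing pools. PTPRC and HBB were under 0.1 RPKM in all. CSF1R made up most of the sum, at 16.6 and 14.4 RPKM in the low-performing pools against 15.1 to 16.9 RPKM in the high-performing pools. CD3E had 2.30 and 2.00 RPKM in the low-performing pools against 1.01 to 1.81 RPKM in the high-performing pools. The part of these markers in the kinesin results was not tested.

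The embryos held mRNA for most of the family. In 33 of the 39 genes at least 2 of the 5 pools reached 1 RPKM, the level required for a test: all 14 mitotic kinesins, 13 of 16 transport kinesins and 6 of 9 others. The remaining 6 lay between 0.0099 and 0.28 RPKM, with 8 to 181 reads in a pool. They were KIF1A, which carries synaptic vesicle precursors in neurons, KIF21A and KIF21B, which are best known from neurons, KIF12 and KIF26A, and KIF6 of motile cilia. The gap at that level was wide, since the second highest pool of KIF21B stood at 0.25 RPKM and that of KIF2B, the lowest gene tested, at 1.37 RPKM. The 5 genes with the highest mean level, KIF3A, KIF23, KIF20B, KIF2C and KIF22, made up 60.6% and 62.7% of the summed kinesin RPKM in low-performing pools 1 and 2, and 58.2% to 59.2% in the high-performing pools.

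**Figure D1:**
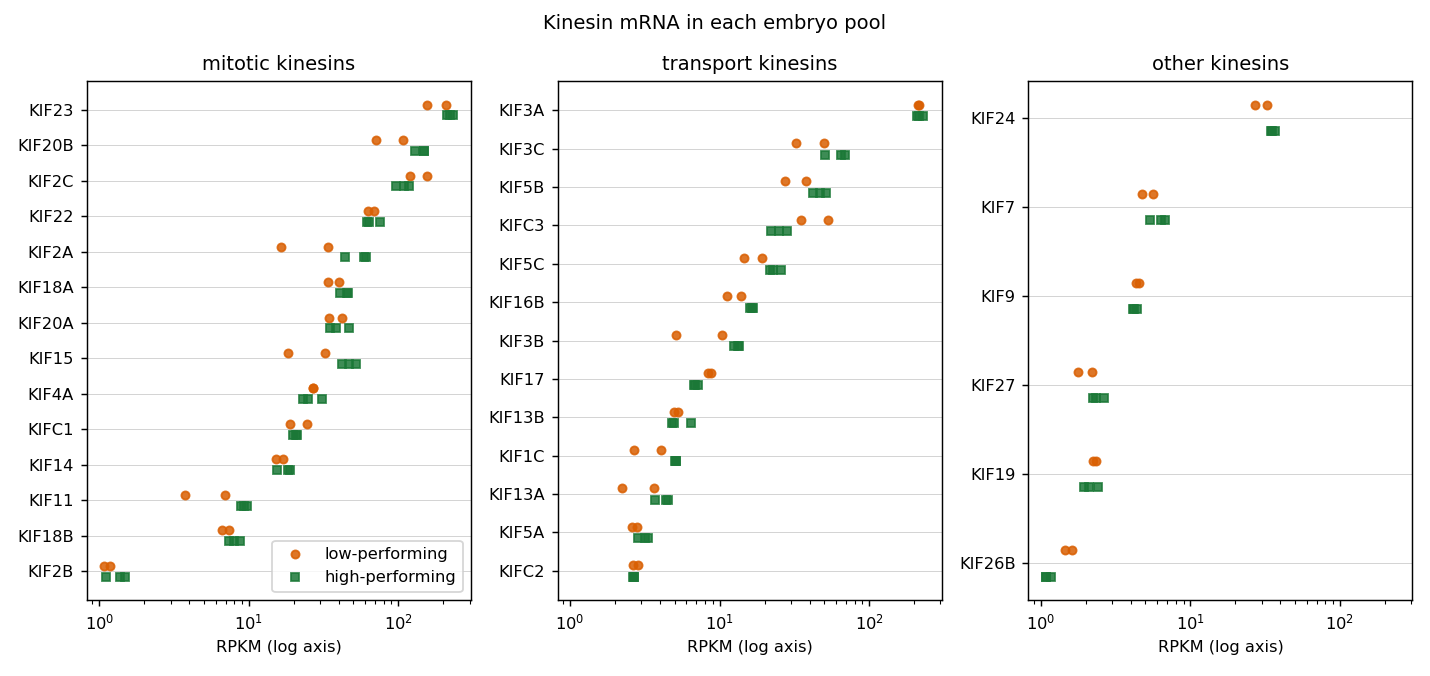
Level of the 33 tested kinesins in each pool, in RPKM on a log axis, with mitotic, transport and other kinesins in separate panels and low-performing pools (circles) drawn above high-performing pools (squares). KIF23 and KIF3A lead their panels at 156 RPKM or more in all pools, and KIF2B and KIF26B lie lowest, between 1.08 and 1.61 RPKM.

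Kinesin mRNAs lay on balance lower in embryos of low-performing sires, at a median log2 fold change of -0.17 over the 33 tested, which came to 0.0015 once the trend over gene length was removed. The median over all 12448 genes tested was -0.03. Each fold change is the low-performing mean less the high-performing mean of log2(RPKM + 1), a scale that understates the change of weakly expressed genes. Of the 33, 24 lay below 0, against 53.3% of all genes tested, and 9 above. The fold changes ran from -1.15 for KIF2A to 0.76 for KIFC3. In a bulk pool, fewer cells holding an mRNA and less of it per cell cannot be told apart.

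No kinesin passed limma at an adjusted p under 0.05, nor did any other gene (0.0% of 12448), and the smallest adjusted p was 0.0829. At an unadjusted p under 0.05, 11 kinesins were lower in the low-performing pools, or 33.3%, against 15.9% of all genes tested. Just 1 was higher, KIFC3, against 19.0% of all genes. Every low-performing pool lay below every high-performing pool for 16 kinesins, against 29.3% of all genes, and above for 4, against 29.4%.

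The count of 11 depended on single libraries. It was 5 without low-performing pool 2, where 4.47% of all genes were lower at that p, 6 without high-performing pool 2, where 6.41% were, and 7 without high-performing pool 3, where 7.73% were. Without low-performing pool 1, 15 kinesins passed at an adjusted p under 0.05, 13 of them lower and 2 higher, and so did 23.9% of all genes on the lower side and 19.8% on the higher side. That fit takes the lone low-performing pool to vary like the others.

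**Figure D2:**
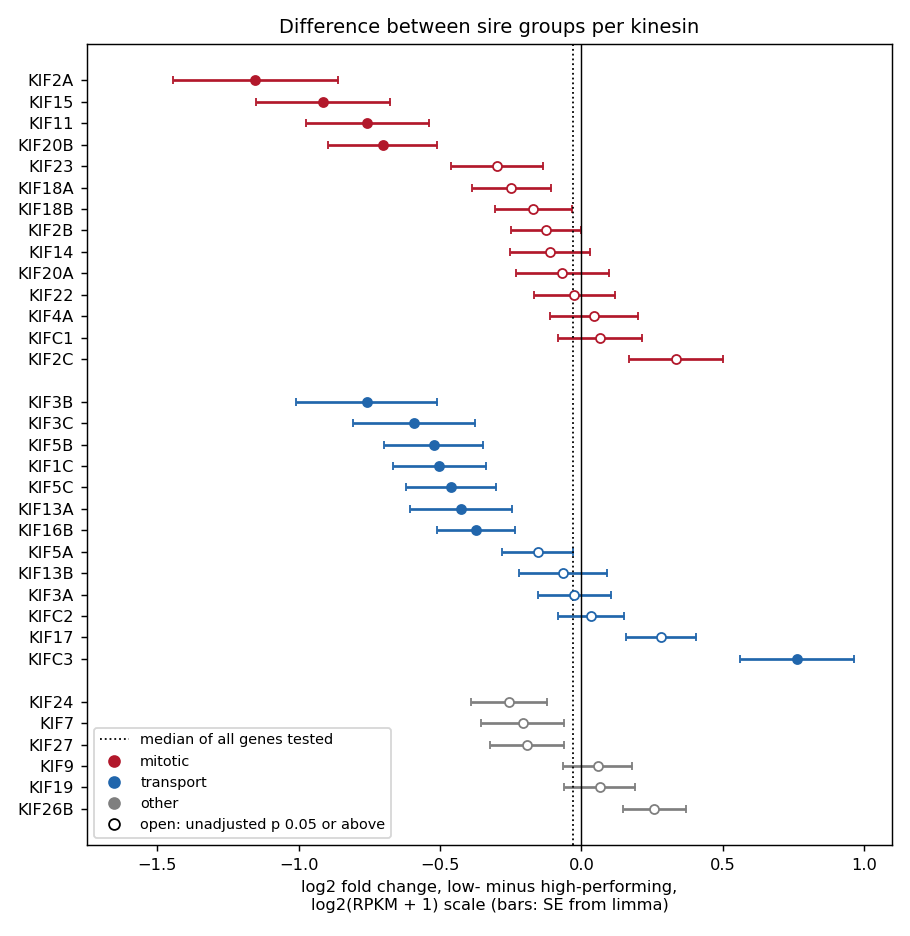
Log2 fold change of each tested kinesin, the low-performing mean less the high-performing mean of log2(RPKM + 1), with the SE from limma. Filled points have an unadjusted p under 0.05: 4 mitotic and 7 transport kinesins to the left of 0, and KIFC3 to the right.

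Gene length moved with this difference. The tested kinesins are long, from 2109 to 7129 bases with a median of 4188 bases, against 2330 bases over all genes tested. Over all genes the median log2 fold change was 0.48 up to 1000 bases, -0.05 between 2001 and 3000 bases, -0.26 between 4001 and 6000 bases and -0.32 above 6000 bases. The 13 kinesins of 4001 to 6000 bases had a median of -0.26 as well, with 6 lower at an unadjusted p under 0.05, against 31.2% of all genes of that length. The 6 longer kinesins had a median of -0.22, with 3 lower, against 46.7% of all genes above 6000 bases. With the length trend of each library removed, 6 kinesins were lower at that p, against 15.2% of all genes, and 4 were higher, against 15.4%. The 6 were KIF2A, KIF15, KIF11, KIF20B, KIF3B and KIF1C, and the 4 were KIFC3, KIF17, KIF26B and KIF19.

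**Figure D3:**
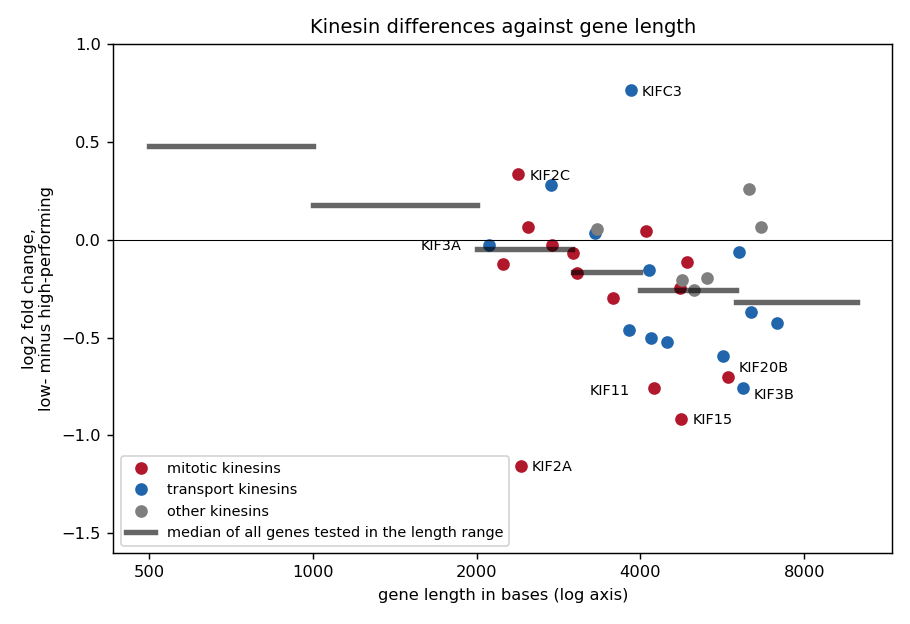
Log2 fold change of each tested kinesin against its gene length in bases on a log axis, with the median of all genes tested in 6 length ranges as grey bars. The bars step down from 0.48 to -0.32 with length, most kinesins lie near the bar of their length, and KIF2A at -1.15 and KIFC3 at 0.76 lie farthest from it.

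Among the mitotic kinesins, 4 stood apart as lower in the low-performing pools: KIF2A, KIF15, KIF11 and KIF20B. KIF2A (chromosome 20, positions 17021529 to 17087796 of build ARS-UCD1.2) removes tubulin from microtubule ends at the spindle poles. It had 34.0 and 16.5 RPKM in low-performing pools 1 and 2, against 44.1, 60.9 and 59.0 RPKM in high-performing pools 1, 2 and 3. Both low-performing pools lay below all high-performing pools, and pool 2 was far below pool 1. The group means were 25.2 ± 12.4 RPKM (n = 2, SD) in low-performing pools and 54.6 ± 9.18 RPKM (n = 3, SD) in high-performing pools, and the log2 fold change was -1.15 ± 0.29 (SE; limma, adjusted p = 0.0829). At 2415 bases the gene is close to the median length of all genes tested, and with the length trend removed the fold change was -1.11. Leaving out low-performing pool 2 gave -0.65, and leaving out pool 1 gave -1.65.

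KIF15 and KIF11 are the motors that push the spindle poles apart and hold the spindle bipolar, KIF11 at its assembly and KIF15 mainly in keeping it so. KIF15 (chromosome 22, 16507963 to 16564652) had 32.5 and 18.2 RPKM in the low-performing pools, against 46.5, 52.4 and 42.1 RPKM in the high-performing pools. KIF11 (chromosome 26, 14004835 to 14050631) had 6.94 and 3.73 RPKM in the low-performing pools, against 9.36, 9.80 and 8.91 RPKM in the high-performing pools. For both genes the groups did not overlap, and low-performing pool 2 was the lowest. The log2 fold changes were -0.92 ± 0.24 (SE; limma, adjusted p = 0.0829) for KIF15 and -0.76 ± 0.22 (SE; limma, adjusted p = 0.0841) for KIF11. With the length trend removed they were -0.67 and -0.54, and without low-performing pool 2 they were -0.51 and -0.38. The ratio of KIF15 to KIF11 RPKM was 4.68 and 4.88 in the low-performing pools and between 4.72 and 5.34 in the high-performing pools.

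KIF20B and KIF23 belong to the motors of the central spindle and of cytokinesis. KIF20B (chromosome 26, 11351677 to 11435642), which acts late in cytokinesis, had 107 and 70.6 RPKM in the low-performing pools, against 149, 148 and 130 RPKM in the high-performing pools. The groups did not overlap, and the log2 fold change was -0.70 ± 0.19 (SE; limma, adjusted p = 0.0832), or -0.41 with the length trend removed and -0.41 without low-performing pool 2. KIF23, the motor of the centralspindlin complex, was the most abundant mitotic kinesin, at 209 and 156 RPKM in the low-performing pools, against 223, 234 and 211 RPKM in the high-performing pools. Low-performing pool 1 lay just under the lowest high-performing pool, and the log2 fold change of -0.30 ± 0.16 (SE; limma, adjusted p = 0.219) did not pass. KIF20A, the paralogue of KIF20B that brings the chromosomal passenger complex to the midzone, had 41.8 and 34.7 RPKM in the low-performing pools, against 46.8, 38.5 and 35.2 RPKM in the high-performing pools. These values overlapped. KIF20B stood at 2.56 and 2.04 times the RPKM of KIF20A in the low-performing pools and at 3.19 to 3.84 times in the high-performing pools. KIF20B has 5794 bases and KIF20A 3013, and these ratios are not adjusted for the length trend.

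The other motors that shorten spindle microtubules had values unlike those of KIF2A, higher for KIF2C and less far below for KIF18A and KIF18B, though these differences between genes were not tested. KIF2C, which corrects faulty attachments at the kinetochore, had 119 and 156 RPKM in the low-performing pools, against 119, 96.5 and 110 RPKM in the high-performing pools. Low-performing pool 1 lay barely above high-performing pool 1, pool 2 was highest, and the log2 fold change of 0.33 ± 0.17 (SE; limma, adjusted p = 0.187) did not pass. The ratio of KIF2C to KIF2A was 3.51 and 9.43 in the low-performing pools and 1.59 to 2.69 in the high-performing pools. KIF2B, of the same subfamily, lay between 1.08 and 1.5 RPKM in all pools. KIF18A, which shortens kinetochore microtubules and damps chromosome movement, had 40.1 and 33.8 RPKM in the low-performing pools, against 46.0, 40.5 and 45.3 RPKM in the high-performing pools. Its log2 fold change was -0.25 ± 0.14 (SE), and -0.0038 with the length trend removed. KIF18B, which acts on astral microtubules, had 7.43 and 6.65 RPKM in the low-performing pools, against 7.43, 7.96 and 8.76 RPKM in the high-performing pools, with overlap between the groups at pool 1 of each.

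The motors that bind chromatin or bundle microtubules had log2 fold changes smaller than their SE. KIF22, which pushes chromosome arms away from the poles, had 69.0 and 62.5 RPKM in the low-performing pools, against 61.9, 63.7 and 75.8 RPKM in the high-performing pools. KIF4A, which works on chromosome arms and at the midzone, had 26.7 and 27.1 RPKM in the low-performing pools, against 31.0, 24.8 and 23.0 RPKM in the high-performing pools. KIFC1, a minus-end motor that gathers the spindle poles, had 18.8 and 24.4 RPKM in the low-performing pools, against 19.6, 20.6 and 21.1 RPKM in the high-performing pools. In all 3 genes the groups overlapped. KIF14, needed for cytokinesis, had 17.0 and 15.3 RPKM in the low-performing pools, against 18.8, 18.3 and 15.5 RPKM in the high-performing pools. The log2 fold changes of these 4 lay between -0.11 and 0.07, with SEs of 0.14 to 0.16.

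Among transport kinesins, KIF3A was level between the groups while KIF3B and KIF3C were lower in the low-performing pools. KIF3A pairs with KIF3B or KIF3C into a motor that, with KIF3B, builds cilia. KIF3A was the most abundant transport kinesin, at 215 and 214 RPKM in the low-performing pools, against 210, 231 and 215 RPKM in the high-performing pools. The groups overlapped, and the log2 fold change was -0.02 ± 0.13 (SE). KIF3B (chromosome 13, 61747316 to 61787770) had 10.3 and 5.07 RPKM in the low-performing pools, against 12.4, 13.3 and 13.4 RPKM in the high-performing pools. The groups did not overlap, low-performing pool 2 stood far below the rest, and the log2 fold change was -0.76 ± 0.25 (SE; limma, adjusted p = 0.095). Leaving out low-performing pool 2 gave -0.31, leaving out pool 1 gave -1.21, and removing the length trend gave -0.45. KIF3C had 49.8 and 32.3 RPKM in the low-performing pools, against 50.7, 65.3 and 68.7 RPKM in the high-performing pools, with low-performing pool 1 close to high-performing pool 1. Its log2 fold change was -0.59 ± 0.22 (SE; limma, adjusted p = 0.11). It stood at -0.29 without low-performing pool 2, at -0.90 without pool 1 and at -0.30 after the length trend was removed. KIF3A thus stood at 20.8 and 42.2 times the RPKM of KIF3B in the low-performing pools and at 16.0 to 17.3 times in the high-performing pools. KIF3A has 2109 bases and KIF3B 6176, and these ratios are not adjusted for the length trend. The third subunit, KIFAP3, averaged 11.7 ± 0.41 RPKM (n = 2, SD) over low-performing pools and 11.9 ± 0.22 RPKM (n = 3, SD) over high-performing pools.

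**Figure D4:**
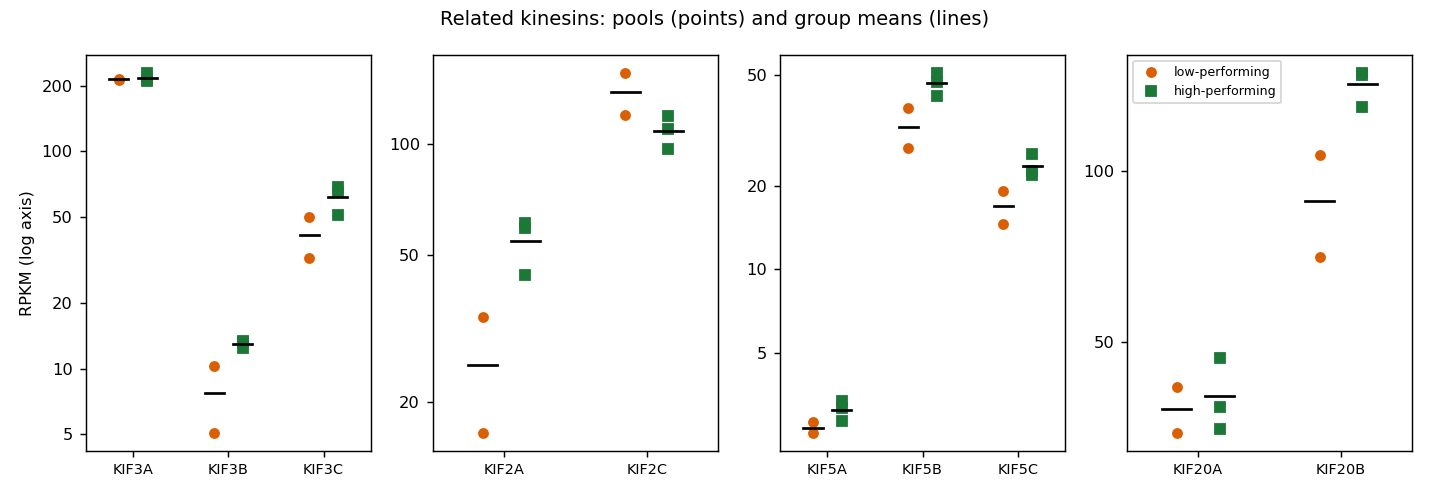
RPKM on log axes of related kinesins in each pool, with low-performing pools (circles) left of high-performing pools (squares) and lines at the group means; axes differ between panels. KIF3A lies level between the groups while KIF3B and KIF3C are lower in the low-performing pools, KIF2A is lower and KIF2C higher there, KIF5B and KIF5C are lower together, and KIF20B is lower while KIF20A overlaps.

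Of the conventional kinesin heavy chains, which carry mitochondria, vesicles and RNA granules, KIF5B and KIF5C were lower in the low-performing pools at an unadjusted p under 0.05, and KIF5A was not. KIF5B, the form found in most tissues, had 38.0 and 27.3 RPKM in the low-performing pools, against 47.2, 51.1 and 42.1 RPKM in the high-performing pools. KIF5C, best known from neurons, had 19.1 and 14.6 RPKM in the low-performing pools, against 21.8, 25.9 and 22.7 RPKM in the high-performing pools. The groups did not overlap in either gene. The log2 fold changes were -0.52 ± 0.17 (SE; limma, adjusted p = 0.097) for KIF5B and -0.46 ± 0.16 (SE; limma, adjusted p = 0.101) for KIF5C, and -0.29 and -0.27 with the length trend removed. Leaving out low-performing pool 2 gave -0.29 and -0.28, and neither then had an unadjusted p under 0.05. KIF5B stood at 1.98 and 1.87 times the RPKM of KIF5C in the low-performing pools and at 1.86 to 2.17 times in the high-performing pools. KIF5A, the neuronal form, had 2.81 and 2.58 RPKM in the low-performing pools, against 2.84, 3.34 and 3.17 RPKM in the high-performing pools. Its log2 fold change of -0.16 ± 0.13 (SE; limma, adjusted p = 0.395) was 0.056 with the length trend removed.

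The vesicle and endosome carriers KIF1C, KIF16B and KIF13A were lower in the low-performing pools, while KIF13B overlapped. KIF1C, a vesicle carrier, had 4.07 and 2.66 RPKM in the low-performing pools, against 5.11, 5.07 and 5.12 RPKM in the high-performing pools. The high-performing pools were nearly equal, and the log2 fold change was -0.50 ± 0.16 (SE; limma, adjusted p = 0.0948), or -0.29 with the length trend removed. KIF16B, which moves early endosomes, had 13.8 and 11.2 RPKM in the low-performing pools, against 16.1, 16.4 and 16.7 RPKM in the high-performing pools. Its log2 fold change was -0.37 ± 0.14 (SE; limma, adjusted p = 0.112), and -0.06 with the length trend removed. KIF13A, a carrier of endosomes, had 3.63 and 2.24 RPKM in the low-performing pools, against 3.72, 4.41 and 4.51 RPKM in the high-performing pools. Low-performing pool 1 was close to high-performing pool 1, and the log2 fold change of -0.43 ± 0.18 (SE) was -0.10 with the length trend removed. KIF13B had 5.25 and 4.93 RPKM in the low-performing pools, against 6.48, 4.83 and 4.93 RPKM in the high-performing pools, which overlapped. Without low-performing pool 2 the fold changes were -0.27 for KIF1C, -0.23 for KIF16B and -0.17 for KIF13A, and none of these 3 then had an unadjusted p under 0.05.

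Transport kinesins with higher values in the low-performing pools were KIFC3 and KIF17. KIFC3 (chromosome 18, 25722016 to 25756803), a minus-end motor of epithelial cell transport and adhesion, had 34.9 and 52.9 RPKM in the low-performing pools, against 28.2, 24.8 and 22.1 RPKM in the high-performing pools. Both low-performing pools lay above all others, and pool 2 was highest. The group means were 43.9 ± 12.8 RPKM (n = 2, SD) in low-performing pools and 25.1 ± 3.06 RPKM (n = 3, SD) in high-performing pools, with a log2 fold change of 0.76 ± 0.20 (SE; limma, adjusted p = 0.0829). Leaving out low-performing pool 2 gave 0.47, leaving out pool 1 gave 1.06, and removing the length trend gave 0.95. KIF17, a motor of cilia and dendrites, had 8.43 and 8.76 RPKM in the low-performing pools, against 7.16, 6.73 and 6.80 RPKM in the high-performing pools. The pools of each group were close together and did not overlap with the other group, and the log2 fold change of 0.28 ± 0.12 (SE; limma, adjusted p = 0.153) did not pass. KIFC2, the remaining transport kinesin tested, lay between 2.63 and 2.83 RPKM in all 5 pools.

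Of the 6 tested kinesins of cilia, centrioles and signalling, 0 had an unadjusted p under 0.05, against 15.9% of all genes lower and 19.0% higher. With the length trend removed, 2 were higher at that p, KIF26B at 0.57 and KIF19 at 0.38 on the log2 scale, against 15.4% of all genes. Before that removal they stood at 0.26 and 0.06, and the pools of KIF19 overlapped between the groups. The trend was fitted over all genes tested, and how well it holds for weakly expressed ones was not tested. KIF24, which acts at the mother centriole to hold back cilium formation, was the most abundant, with 32.5 and 27.0 RPKM in the low-performing pools, against 35.1, 37.0 and 34.9 RPKM in the high-performing pools. The groups did not overlap, and the log2 fold change of -0.26 ± 0.14 (SE; limma, adjusted p = 0.207) was 0.0015 with the length trend removed. Its exons share 191 bases with NUDT2 on the opposite strand, which had 124 and 191 RPKM in the low-performing pools, against 99.9, 59.0 and 65.0 RPKM in the high-performing pools. The strand setting of the counting is not stated in the sources used here. KIF7, a regulator of Hedgehog signalling in the cilium, had 5.60 and 4.78 RPKM in the low-performing pools, against 5.39, 6.77 and 6.32 RPKM in the high-performing pools, with overlap. KIF9, KIF19, KIF26B and KIF27 lay between 1.08 and 4.54 RPKM in all pools. Among them KIF26B and KIF27 did not overlap, in opposite directions. KIF26B had 1.44 and 1.61 RPKM in the low-performing pools, against 1.16, 1.08 and 1.08 RPKM in the high-performing pools. KIF27 had 2.20 and 1.76 RPKM in the low-performing pools, against 2.24, 2.64 and 2.34 RPKM in the high-performing pools.

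Set side by side, which of the mitotic and transport kinesins were more often lower depended on the setting, and the difference between the classes was not tested. Over the 14 mitotic kinesins the median log2 fold change was -0.15, with 4 lower and 0 higher at an unadjusted p under 0.05, and over the 13 transport kinesins it was -0.37, with 7 lower and 1 higher. Over all genes tested, 15.9% were lower and 19.0% higher. The order of the lower counts turned to 4 mitotic against 2 transport kinesins with the length trend removed, where 15.2% of all genes were lower at that p. The authors' deposited table called 4 mitotic and 0 transport kinesins lower at an FDR under 0.05, against 2.45% of its 27607 genes. Of the 12448 genes tested here it called 631 lower. The mitotic median was thus 0.22 above the transport median. That gap shrank to 0.038 with the length trend removed and to 0.07 without low-performing pool 2. It turned to -0.02 with no filter on low values, a setting that adds KIF1A, KIF21A and KIF21B, at 0.28 RPKM or less. The log2(RPKM + 1) scale holds the differences of such genes near 0 by construction, so that turn tells nothing about the classes. The tested transport kinesins are also longer, with a median of 4188 bases against 3308 bases. In summed level the mitotic class made up 61.5% and 59.6% of kinesin RPKM in the low-performing pools and 61.6% to 63.9% in the high-performing pools.

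Low-performing pool 2 departed further than pool 1 in both classes. The median log2 ratio to the high-performing mean was -0.12 in low-performing pool 1 and -0.29 in pool 2 for mitotic kinesins, and -0.22 and -0.55 for transport kinesins. Without the log, the median ratio over all genes tested was 1.01 in pool 1 and 0.94 in pool 2. For the 33 tested kinesins it was 0.92 and 0.81. These ratios are not adjusted for the length trend. Pool 2 lay below pool 1 in 25 of the 33 genes, against 59.3% of all genes tested. Summed over the 39 genes, kinesin levels came to 1188 and 1050 RPKM in the low-performing pools, against 1290, 1326 and 1266 RPKM in the high-performing pools.

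**Figure D5:**
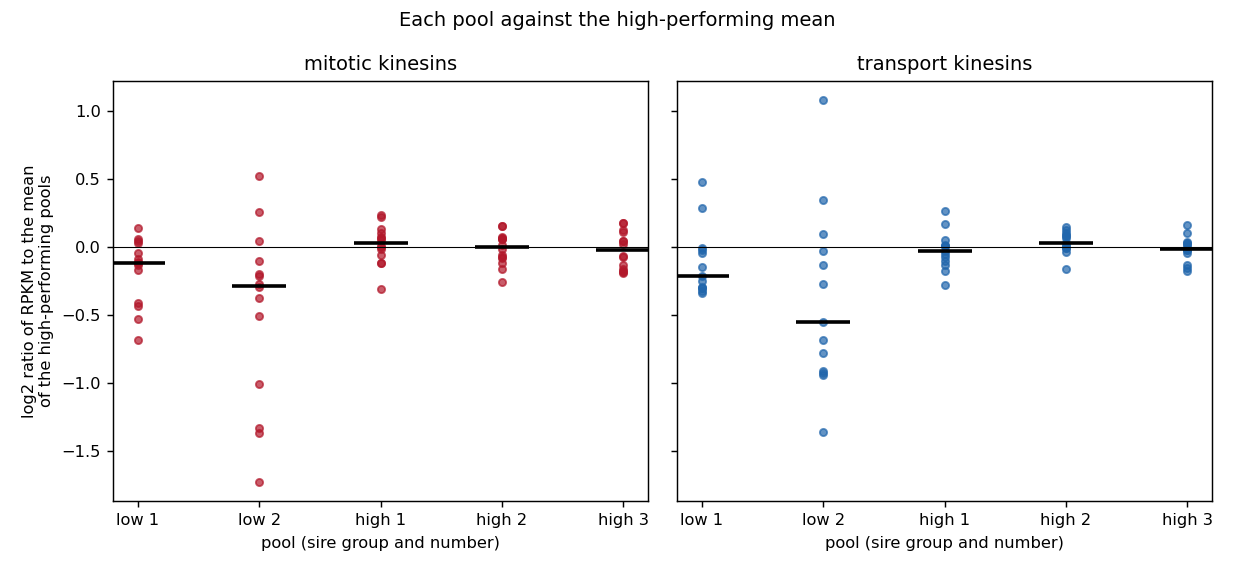
Log2 ratio of RPKM in each pool to the mean of the 3 high-performing pools, with 1 point per tested kinesin, mitotic kinesins on the left and transport kinesins on the right, and a bar at the median of the pool. Medians of the low-performing pools are -0.12 and -0.29 for mitotic and -0.22 and -0.55 for transport kinesins, while those of the high-performing pools stay between -0.03 and 0.03.

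Partners of the motors were mixed. Of 23 light chains and cargo adaptors tested, 5 were lower and 3 higher at an unadjusted p under 0.05, against 15.9% lower and 19.0% higher over all genes. Their median log2 fold change was -0.15, and -0.0077 with the length trend removed. KTN1, the membrane anchor kinectin, averaged 98.8 ± 13.1 RPKM (n = 2, SD) over low-performing pools and 143 ± 13.9 RPKM (n = 3, SD) over the high-performing pools, and its log2 fold change was -0.53 ± 0.15 (SE). SPAG9, a scaffold that binds light chains, stood at -0.49 ± 0.15 (SE) and SYNE4, which links kinesin to the nuclear envelope, at 0.71 ± 0.16 (SE). FEZ2, a cargo adaptor, averaged 112 RPKM in the low-performing pools and 96.4 RPKM in the high-performing pools. Of 19 spindle partners and kinesins under other names, 2 were lower and 3 higher, against the same shares of all genes, with a median of -0.08 that turned to 0.13 with the length trend removed. The lower ones were CENPE, the kinetochore kinesin that carries chromosomes to the spindle equator, and MAPRE1, which marks growing microtubule ends. CENPE had 13.7 and 9.43 RPKM in the low-performing pools, against 23.4, 20.5 and 16.9 RPKM in the high-performing pools, and stood at -0.77 ± 0.20 (SE) on the log2 scale. MAPRE1 had 237 and 134 RPKM in the low-performing pools, against 300, 334 and 328 RPKM in the high-performing pools, and stood at -0.84 ± 0.23 (SE). KNSTRN, a spindle protein, stood at 0.46 ± 0.18 (SE). AURKA, the spindle pole kinase, averaged 2728 ± 611 RPKM (n = 2, SD) over low-performing pools and 1914 ± 164 RPKM (n = 3, SD) over high-performing pools, and TACC3, which stabilises spindle fibres, averaged 957 RPKM in the low-performing pools and 884 RPKM in the high-performing pools. RACGAP1, the partner of KIF23 in centralspindlin, averaged 91.0 ± 17.0 RPKM (n = 2, SD) over low-performing pools and 95.6 ± 2.11 RPKM (n = 3, SD) over high-performing pools.

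Over 14 tested tubulins, the subunits of the track, the median log2 fold change was 0.07, with 2 lower and 2 higher at an unadjusted p under 0.05, near the 15.9% and 19.0% of all genes, and a median of -0.03 with the length trend removed. TUBB and TUBA1C stood at -0.67 ± 0.16 (SE) and -0.36 ± 0.14 (SE), and TUBB2B and TUBG1 at 0.44 ± 0.13 (SE) and 0.44 ± 0.16 (SE). TUBG2, a gamma-tubulin of the nucleating centres, averaged 408.5 RPKM in the low-performing pools and 386 RPKM in the high-performing pools. No gene of these 3 lists passed limma at an adjusted p under 0.05. RACGAP1, KIFAP3 and NUDT2 were named after their values were seen, for their tie to a kinesin.

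The authors' deposited table, which holds their own comparison, called 5 of the 39 kinesins at an FDR under 0.05. Of these, 4 were lower in the low-performing pools in the authors' deposited table, against 2.45% of its 27607 genes, and 1 was higher, against 5.51%. Those shares count weakly expressed genes too. Of the 12448 genes tested here, the authors' deposited table called 631 lower and 1375 higher, and of the 33 kinesins tested, 4 and 1. The lower ones in the authors' deposited table were KIF2A (log2 fold change -1.11, FDR 0.00415), KIF20B (-0.68, FDR 0.0115), KIF15 (-0.89, FDR 0.0162) and KIF11 (-0.81, FDR 0.0248), and the higher one was KIFC3 (0.81, FDR 0.00343). The next smallest FDR in the authors' deposited table belonged to KIF3B, at 0.0554. The 5 genes are the same that had the smallest p among kinesins in limma, and both comparisons rest on the same 5 pools.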

How the data were processed

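The genome build was ARS-UCD1.2, and the tools named are edgeR, featureCounts and FastQC, per the submitters' processing notes. Not given in the sources used here: aligner, versions, model formula, strand setting. The kit was for stranded mRNA, per the labels' protocols. The deposited table gives RPKM per library by the authors, which times length in kilobases sums to 1000000 per library, so it carries no trimmed-mean factor. All deposited values came out as whole reads (tolerance 1e-06), which gave the depths; counting error alone allows a floor of 3 reads. The authors also deposited per gene a log2 fold change, a mean on the log2 CPM scale, the score of a likelihood ratio test, and a p-value with FDR. Gene names, positions and lengths are the file's. All 39 symbols matched RefSeq symbols of another assembly, whose coordinates were not used. No column was left unmapped. One result on a gene outside the family is not reported here.

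The test was limma 3.58.1 (R 4.3.3) on log2(RPKM + 1) with its trend over intensity, for genes reaching 1 RPKM in 2 or more of the 5 libraries, two-sided, with Benjamini-Hochberg adjustment over 12448 genes and a threshold of 0.05. It was tested on simulated independent reads with known changes and the same spread setting for all genes. The simulation held no length trend and no deviating pool, so it does not show how the test fares on data with these. RPKM in every pool is given for the 26 tested kinesins with a mean RPKM of at least 5 or an unadjusted p under 0.05; of each partner list, up to 3 genes by p and 2 by level. Members, classes and lists were chosen with earlier results of these data known, and counts and medians of a list are a description without a test. The 15 alternatives were other pseudocounts, filters and scalings, removal of a loess trend over log2 length (span 0.5), limma without trend, limma voom on the whole reads, the replicate number as a block, and each library left out.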

Additional observations from a re-analysis of the deposited data

How the results depend on the processing

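With the length trend removed, the median log2 fold change was 0.0015 for all tested kinesins, -0.023 for mitotic and -0.061 for transport kinesins, a gap of 0.038, and 0.0057 for all genes; 6 kinesins were lower and 4 higher at an unadjusted p under 0.05. KIF13B (0.24), KIF14 (0.14), KIF20A (0.057), KIF22 (0.071), KIF24 (0.0015) and KIF7 (0.038) changed sign. With no filter on low values the transport median was -0.12, the gap turned to -0.023, the median of all genes was -0.0034 and 3 kinesins were higher. That alternative adds the 6 weakly expressed kinesins. The number of higher kinesins was also 3 with a trimmed-mean factor, where KIF22 stood at 0.0020 and KIF3A at 0.0028, and 2 with quantile normalization and with limma voom, where the gap was 0.18. In either direction, 4726 of 22612 genes had an unadjusted p under 0.05 with no filter on low values. Of 12448 genes, 4508 did with a trimmed-mean factor, 4568 with quantile normalization and 4413 with limma voom. The lower kinesins numbered 10, 11, 12 and 11 in that order. Where a value moved and no construction is named, the cause was not tested.

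With the replicate number as a block, which leaves high-performing pool 3 without a partner and so out of the difference, limma called 833 of all genes and 2 kinesins, KIF2A and KIF15, at an adjusted p under 0.05. That fit leaves almost no replication within a gene. Its p-values rest mostly on spread pooled over all genes, so a gene's own pool-to-pool spread hardly enters these calls. Unadjusted, 2340 genes and 6 lower kinesins had a p under 0.05; the gap between the classes was 0.19, and KIF22 (0.064) and KIF4A (-0.041) changed sign. The pools share a number and no stated origin. Deviations from the group means correlated at -0.48 between the pools numbered 1 and at -0.26 between those numbered 2, over 12448 genes. The deviations of the 2 low-performing pools mirror each other by construction. Low-performing pool 2 thus stood at 0.48 with high-performing pool 1, and low-performing pool 1 at 0.26 with high-performing pool 2. Whether the numbers mark pairs cannot be told from these values.

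Leaving out 1 pool at a time gave a kinesin median of -0.24 to -0.099, a mitotic median of -0.22 to -0.095, a transport median of -0.51 to -0.17 and a gap of 0.073 to 0.29. The number of kinesins at an unadjusted p under 0.05 was 5 to 14 lower and 1 to 2 higher, and 0 to 15 passed at an adjusted p under 0.05. Over all genes the median was -0.074 to 0.017, with 1808 to 6620 genes at an unadjusted p under 0.05 and 0 to 5436 at an adjusted p under 0.05; the upper counts are without low-performing pool 1 and the lowest unadjusted count without low-performing pool 2. Genes near 0 changed sign within these ranges: KIF13B (-0.13 to 0.051), KIF20A (-0.20 to 0.064), KIF22 (-0.095 to 0.064), KIF3A (-0.052 to 0.014), KIF4A (-0.041 to 0.16) and KIFC1 (-0.11 to 0.25).

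Pseudocounts of 0.1 and 0.5 and limma without trend moved none of these values beyond the spread between pools, and a filter at a mean RPKM of 5 kept the sign of the 24 kinesins it left among the 26. The depth, at least 167 reads per tested kinesin and pool, bounds the counting error of single levels, and the comparison rests on 2 pools against 3.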
